A study of Bos taurus with 9 samples.

Results

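The genes described here encode nuclear-made subunits of the oxidative phosphorylation system, and they were followed across skeletal muscle and 2 adipose depots of Yan yellow cattle. Members were the 45 listed subunit genes, and a probe set was taken where the array annotation gave exactly 1 gene symbol that was a listed gene or its older alias. Of these, 42 genes were measured, by 55 probe sets, out of 9155 named genes and 24016 probe sets in all. Cytochrome c (CYCS) and the complex IV subunits COX6B1 and COX7B had no probe set with 1 symbol and were not analysed here. All 42 measured genes were tested, since no filter on low values was applied.

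Abdominal adipose tissue, subcutaneous adipose tissue and the longissimus dorsi, the long muscle of the back, were each profiled on 3 one-colour Affymetrix bovine arrays. All samples came from untreated male cattle aged 24 months, taken at slaughter and frozen, with no difference in genotype or diet stated. The labels mention 9 bulls and tie no sample to an animal. Leading numbers in the sample titles recur across tissues, and what they stand for is not stated. The p-values therefore rest on the spread between samples, part of which may be technical. They treat the arrays as independent, which would not hold if tissues share animals. Each sample is a piece of whole tissue that holds several cell types, and levels are given as log2 of the intensities in the deposited table.

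The oxidative phosphorylation system is the set of protein complexes in the inner mitochondrial membrane that turn the energy of food into ATP. Complexes I and II take electrons from NADH and succinate, and complex III passes them through cytochrome c to complex IV, which reduces oxygen. Complexes I, III and IV build the proton gradient that drives ATP synthase. Skeletal muscle is rich in mitochondria and uses heart and muscle isoforms of several complex IV subunits, while white fat holds fewer mitochondria per cell and uses isoforms that most tissues share.

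The tissue labels were checked against marker genes. All 7 measured adipocyte markers were higher in adipose tissue. Their summed level, the log2 of the summed intensities, in which the brightest genes weigh most, was 14.95 to 15.25 on the adipose arrays. On the muscle arrays it was 12.48 to 13.35. Of 8 skeletal muscle markers, 6 were lower in adipose tissue, and the summed level was 11.72 to 12.65 on the adipose arrays, against 15.63 to 15.94 in muscle. The other 2, MYH7 and CKM, were higher in adipose tissue by their brightest probe sets (0.60 and 1.46). All 6 macrophage and 5 of 6 endothelial markers were higher in adipose tissue. The median array level in adipose tissue exceeded that in muscle by 0.12. The ratio of 3' to 5' intensity of the glyceraldehyde-3-phosphate dehydrogenase controls, a sign of RNA integrity, was 1.21 to 1.74 on the adipose arrays and 0.94 to 1.01 on the muscle arrays. For the actin controls it was 2.24 to 8.17 on the adipose arrays and 0.96 to 1.04 on the muscle arrays. The part of these differences in the results below was not tested.

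Nearly all subunits were lower in adipose tissue than in muscle. With the mean of both depots set against muscle, 40 of 42 members were lower and 1, COX8A, was higher, while COX4I1 did not pass (limma, Benjamini-Hochberg adjusted p under 0.05 over all probe sets). Among all named genes, 29.5% were lower and 32% higher in the same test. The median difference of the members was -1.11 on the log2 scale, against -0.02 over all named genes. For 38 members every adipose array lay below every muscle array, which held for 25.8% of all named genes. In whole tissue, fewer cells of a type and less RNA per cell cannot be told apart.

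**Figure D1:**
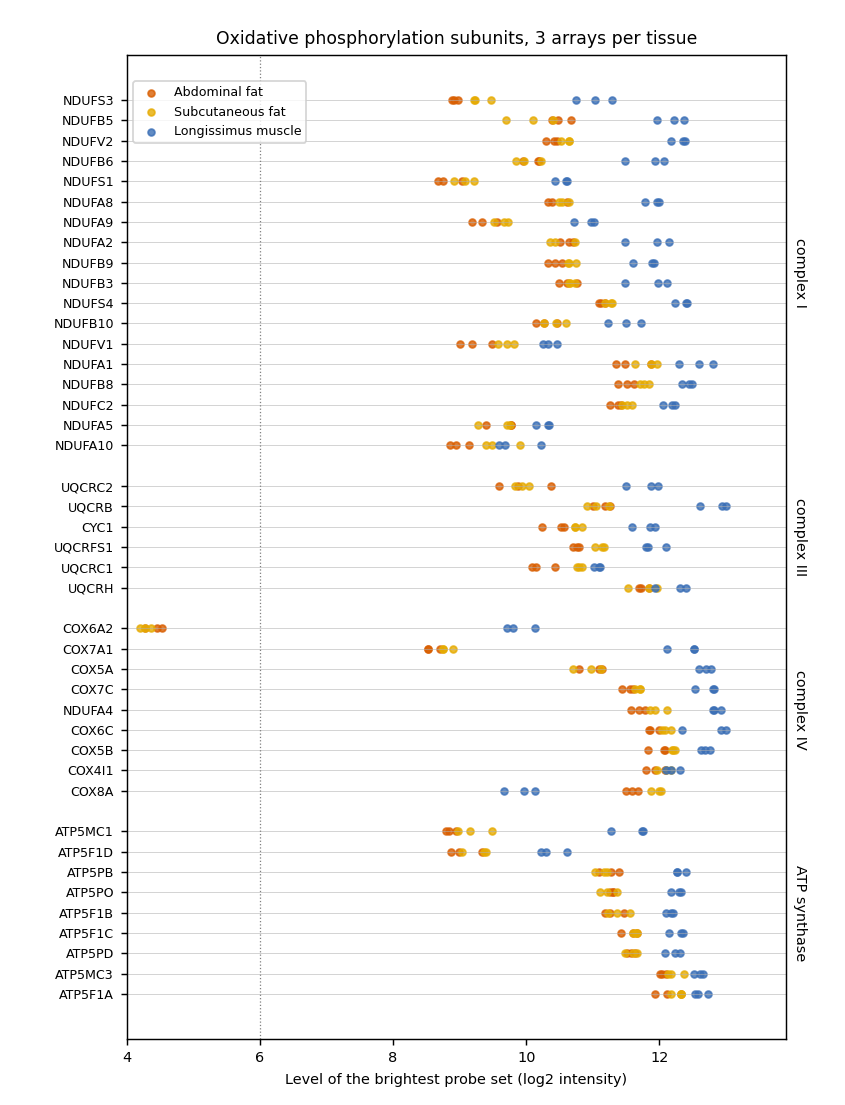
Log2 intensity (x axis) of the brightest probe set of each of the 42 measured subunit genes (rows, grouped by complex), with 3 points for each of abdominal fat, subcutaneous fat and longissimus muscle. The dotted line marks a log2 level of 6, below which values are taken as near background; COX6A2 is below it on the 6 adipose arrays, and COX8A is the row where the adipose arrays lie to the right of the muscle arrays.

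The members were bright in every tissue apart from COX6A2. Their median level was 10.69 in abdominal fat and 10.87 in subcutaneous fat, against 12.16 in muscle, and 1, 1 and 0 of them had a mean under 6 in these tissues. The spread between arrays of a tissue was small, with a median SD of 0.13 in abdominal fat and 0.10 in subcutaneous fat, against 0.16 in muscle. The brightest values of COX6C and UQCRB reached 13, on muscle replicate 2, where the array maximum was 14, so differences of the brightest members may be compressed.

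Complex I, the NADH dehydrogenase, had all 18 members lower in adipose tissue, by a median of -1.23 and between -1.91 and -0.55. The subunits NDUFV1, NDUFV2, NDUFS1, NDUFS4 and NDUFA2 belong to the part that oxidizes NADH, and all 5 were lower, by -1.81 to -0.88. NDUFV2, an iron-sulfur subunit, read 10.29, 10.46 and 10.42 on the abdominal arrays, 10.52, 10.64 and 10.64 on the subcutaneous arrays, and 12.36, 12.39 and 12.17 on the muscle arrays. The adipose arrays all lay more than 1.5 below the muscle arrays, and the difference was -1.81 ± 0.10 (SE, 3 arrays per tissue; limma adjusted p = 6.73e-07). NDUFV1, the flavoprotein that binds NADH, was lower by a smaller amount, -0.88 ± 0.13 (limma adjusted p = 0.000262).

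The other members of the peripheral arm, which carries electrons to ubiquinone, were NDUFS3, NDUFA9 and NDUFA5. NDUFS3, a core subunit, had the largest difference in complex I by the brightest probe set of each gene. It read 8.89, 8.98 and 8.92 in abdominal fat and 9.21, 9.23 and 9.47 in subcutaneous fat, against 11.03, 11.29 and 10.75 in muscle, a difference of -1.91 ± 0.13 (limma adjusted p = 2.22e-06). The groups did not overlap. NDUFA9, which sits where the peripheral arm meets the membrane arm, differed by -1.41 ± 0.12 (limma adjusted p = 1.01e-05).

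The size of the NDUFA5 difference depended on the probe set. Its brightest probe set read 9.39, 9.77 and 9.77 in abdominal fat and 9.28, 9.71 and 9.76 in subcutaneous fat, against 10.14, 10.33 and 10.34 in muscle, a difference of -0.66 ± 0.14. A second probe set, the brightest of the 3 in muscle, read 8.62, 8.5 and 8.53 in abdominal fat and 8.21, 8.27 and 8.64 in subcutaneous fat, against 11.17, 11.09 and 10.54 in muscle, a difference of -2.47 ± 0.16. The third differed by -1.40 ± 0.17. All 3 were lower in adipose tissue on every array, with limma adjusted p of 0.0036, 1.52e-06 and 7.99e-05.

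In the membrane arm, which pumps protons, the 6 NDUFB members were lower by -1.89 to -0.79 and the 4 others, NDUFA1, NDUFA8, NDUFA10 and NDUFC2, by -1.42 to -0.55. NDUFB5, an accessory subunit, read 10.48, 10.39 and 10.68 in abdominal fat and 10.10, 10.40 and 9.70 in subcutaneous fat, against 12.37, 12.22 and 11.96 in muscle. Its difference was -1.89 ± 0.16 (limma adjusted p = 9.21e-06), with no overlap between fat and muscle. NDUFA10, another accessory subunit, was the complex I member with the smallest difference, -0.55 ± 0.17 (limma adjusted p = 0.0225). It read 8.85, 8.95 and 9.14 in abdominal fat and 9.49, 9.90 and 9.39 in subcutaneous fat, against 9.59, 10.22 and 9.68 in muscle. Here subcutaneous replicate 2 lay above muscle replicates 1 and 3, and leaving out muscle replicate 2 ended the call (-0.35, adjusted p = 0.103).

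Complex III, which moves electrons from ubiquinol to cytochrome c, had all 6 members lower, with a median of -1.08 and a range of -1.85 to -0.45. The members that carry electrons themselves were close to each other. Cytochrome c1, CYC1, differed by -1.19 ± 0.12 and the Rieske iron-sulfur protein, UQCRFS1, by -0.98 ± 0.11 (limma adjusted p = 2.78e-05 and 3.9e-05). CYC1 read 10.23, 10.57 and 10.52 in abdominal fat and 10.74, 10.74 and 10.84 in subcutaneous fat, against 11.86, 11.94 and 11.59 in muscle, so every adipose array was below every muscle array.

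The 2 core proteins, which have no redox centre, moved by different amounts with their brightest probe sets. UQCRC2 read 9.59, 9.87 and 10.37 in abdominal fat and 9.83, 9.94 and 10.04 in subcutaneous fat, against 11.88, 11.98 and 11.50 in muscle, a difference of -1.85 ± 0.18 (limma adjusted p = 1.74e-05). UQCRC1 read 10.09, 10.14 and 10.44 in abdominal fat and 10.79, 10.84 and 10.76 in subcutaneous fat, against 11.02, 11.11 and 11.10 in muscle, a difference of -0.57 ± 0.11 (limma adjusted p = 0.00154). By these probe sets both were below muscle on every adipose array, and UQCRC1 was nearer to muscle in subcutaneous than in abdominal fat. A dimmer UQCRC2 probe set, described below, differed by only -0.19 (limma adjusted p = 0.155). The 2 genes were not tested against each other.

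Among the small subunits, UQCRB, which lies near the ubiquinone site, read 11.18, 11.01 and 11.26 in abdominal fat and 11.25, 11.05 and 10.91 in subcutaneous fat, against 12.94, 13 and 12.61 in muscle. It differed by -1.74 ± 0.13 (limma adjusted p = 3.48e-06). UQCRH, the hinge protein beside cytochrome c1, read 11.70, 11.84 and 11.72 in abdominal fat and 11.84, 11.97 and 11.53 in subcutaneous fat, against 12.31, 12.40 and 11.93 in muscle. Its adipose and muscle arrays overlapped, through subcutaneous replicate 2 and muscle replicate 3. The difference of -0.45 ± 0.14 passed (limma adjusted p = 0.0222) but not with quantile normalization (-0.35, adjusted p = 0.0677), nor without muscle replicate 1 (-0.40, 0.0815) or 2 (-0.36, 0.0934).

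Where a member had several probe sets, the size often differed between them. NDUFS1 differed by -1.61 with its brightest probe set, by -1.97 with another, and by -0.56 with a dim one whose means were under 6. ATP5F1B differed by -0.81 with its brightest and by -1.50 with a dimmer one, and all of these passed. Second probe sets of UQCRC2 and UQCRB were dimmer and showed little difference with both depots together. The UQCRC2 probe set averaged 6.91, 7.23 and 7.25 in abdominal fat, subcutaneous fat and muscle (-0.19, limma adjusted p = 0.155), and the UQCRB probe set 7.40, 7.58 and 7.63 (-0.14, limma adjusted p = 0.502). That of UQCRC2 was lower than muscle in abdominal fat alone (-0.35, limma adjusted p = 0.0376) but not in subcutaneous fat (-0.03, 0.861). Over all 55 probe sets of the members, 47 were lower, 1 was higher and 7 did not pass, where 26.4% of all probe sets were lower. Apart from these 2 and COX4I1, those 7 were dim second probe sets of COX6C, NDUFA4 and ATP5F1A, with every tissue mean under 6, and a second ATP5F1D probe set described with ATP synthase.

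**Figure D2:**
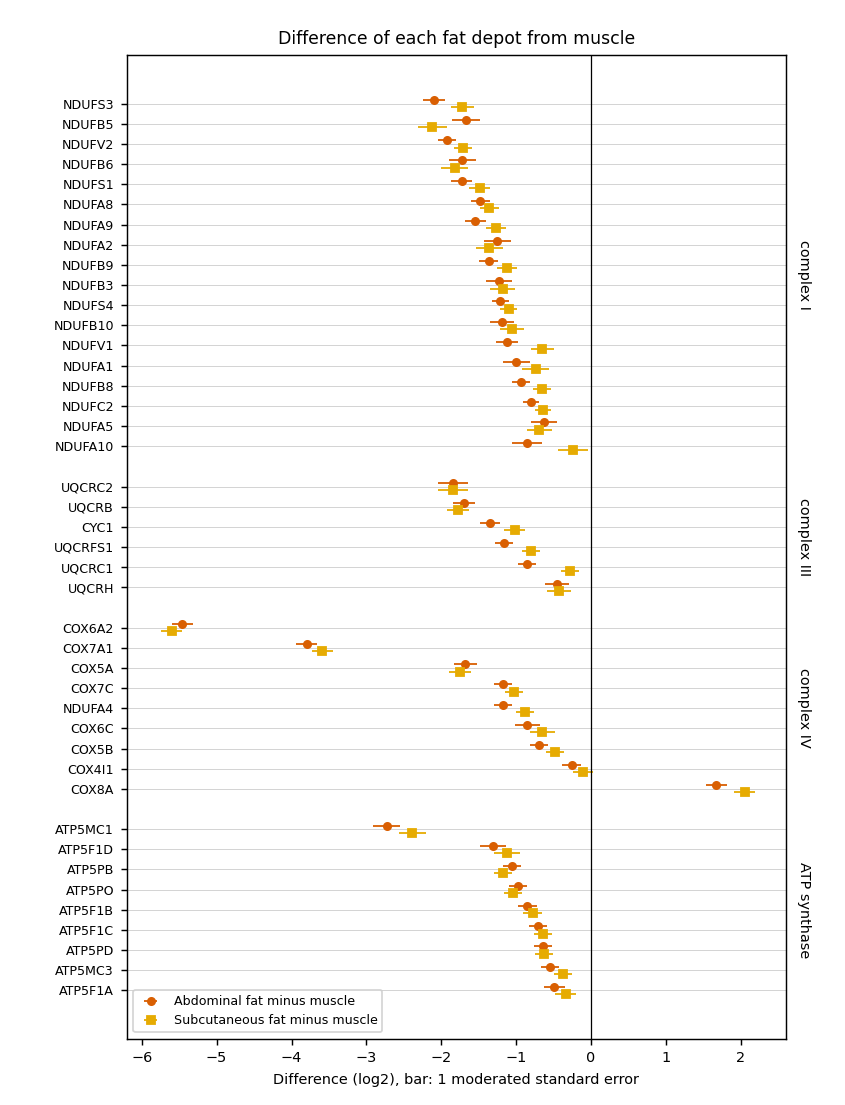
Difference of abdominal fat (circles) and subcutaneous fat (squares) from muscle on the log2 scale (x axis) for each member, with bars of 1 moderated standard error from limma. Complexes I and III and ATP synthase lie to the left of 0 throughout, COX6A2 and COX7A1 are farthest left, and COX8A is right of 0.

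Complex IV, cytochrome c oxidase, had the widest range of differences, from -5.53 to 1.86, with 7 of 9 members lower, 1 higher and a median of -1.03. Members without a heart and muscle isoform were lower by amounts like those of the other complexes, from -1.71 for COX5A to -0.59 for COX5B, apart from COX4I1. COX5B, a zinc-binding subunit, read 11.83, 12.07 and 12.09 in abdominal fat and 12.21, 12.19 and 12.23 in subcutaneous fat, against 12.69, 12.76 and 12.62 in muscle (-0.59 ± 0.10, limma adjusted p = 0.000816). NDUFA4, first assigned to complex I and now counted with complex IV, read 11.70, 11.78 and 11.58 in abdominal fat and 11.86, 12.11 and 11.94 in subcutaneous fat, against 12.82, 12.93 and 12.81 in muscle (-1.03 ± 0.10, limma adjusted p = 2.44e-05). Neither overlapped between fat and muscle.

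COX4I1, a regulatory subunit, was the only member that did not pass. It read 11.80, 12.08 and 11.93 in abdominal fat and 11.97, 12.18 and 12.10 in subcutaneous fat, against 12.18, 12.31 and 12.10 in muscle. The groups overlapped and the difference was -0.19 ± 0.11, with a 95% interval of -0.43 to 0.06 (limma adjusted p = 0.179). With each array centred on its median it passed (-0.31, adjusted p = 0.04), and with quantile normalization it did not (-0.07, 0.613).

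The heart and muscle isoforms COX6A2 and COX7A1 had the largest differences of all members. COX6A2 read 4.46, 4.28 and 4.53 in abdominal fat and 4.27, 4.37 and 4.20 in subcutaneous fat, against 9.71, 10.13 and 9.80 in muscle. The difference was -5.53 ± 0.12 (limma adjusted p = 2.16e-09), and since its adipose values were near background the size is not exact. COX7A1 read 8.53, 8.70 and 8.53 in abdominal fat and 8.75, 8.90 and 8.75 in subcutaneous fat, against 12.52, 12.52 and 12.12 in muscle. It differed by -3.70 ± 0.12 (limma adjusted p = 2.07e-08) and stayed well above 6 on every adipose array.

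COX8A, the COX8 isoform of wide expression, ran the other way. It read 11.50, 11.59 and 11.68 in abdominal fat and 11.87, 12.03 and 12 in subcutaneous fat, against 10.13, 9.66 and 9.96 in muscle, so that every adipose array lay above every muscle array. The difference was 1.86 ± 0.12 (limma adjusted p = 1.64e-06), and COX8A had a single probe set.

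The partner isoforms of COX6A2 and COX7A1, which were not members, were higher in adipose tissue by their brightest probe sets. COX6A1, the widely expressed form of COX6A, read 11.90, 11.91 and 11.88 in abdominal fat and 12.14, 12.20 and 12.17 in subcutaneous fat, against 9.55, 9.15 and 9.37 in muscle (2.68 ± 0.11, limma adjusted p = 8e-08). COX7A2, the widely expressed form of COX7A, read 11.42, 11.66 and 11.66 in abdominal fat and 11.42, 11.82 and 11.56 in subcutaneous fat, against 11.08, 10.48 and 11 in muscle (0.74 ± 0.16, limma adjusted p = 0.00285). Both were higher on every adipose array. A second COX6A1 probe set, with means under 6 in every tissue, was called in the opposite direction (-2.04, limma adjusted p = 0.000133).

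COX8B, the heart and muscle form of COX8, was lower in adipose tissue by an amount that its 2 probe sets did not share. The brightest read 9.93, 10 and 9.93 in abdominal fat and 10.34, 10.15 and 10.12 in subcutaneous fat, against 10.80, 10.80 and 10.42 in muscle (-0.60 ± 0.12, limma adjusted p = 0.002). The other read 6.10, 6.88 and 7.85 in abdominal fat and 6.52, 7.23 and 6.09 in subcutaneous fat, against 11.92, 12.07 and 11.61 in muscle (-5.09 ± 0.36, limma adjusted p = 2.36e-06). With each, the adipose arrays lay below the muscle arrays.

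**Figure D3:**
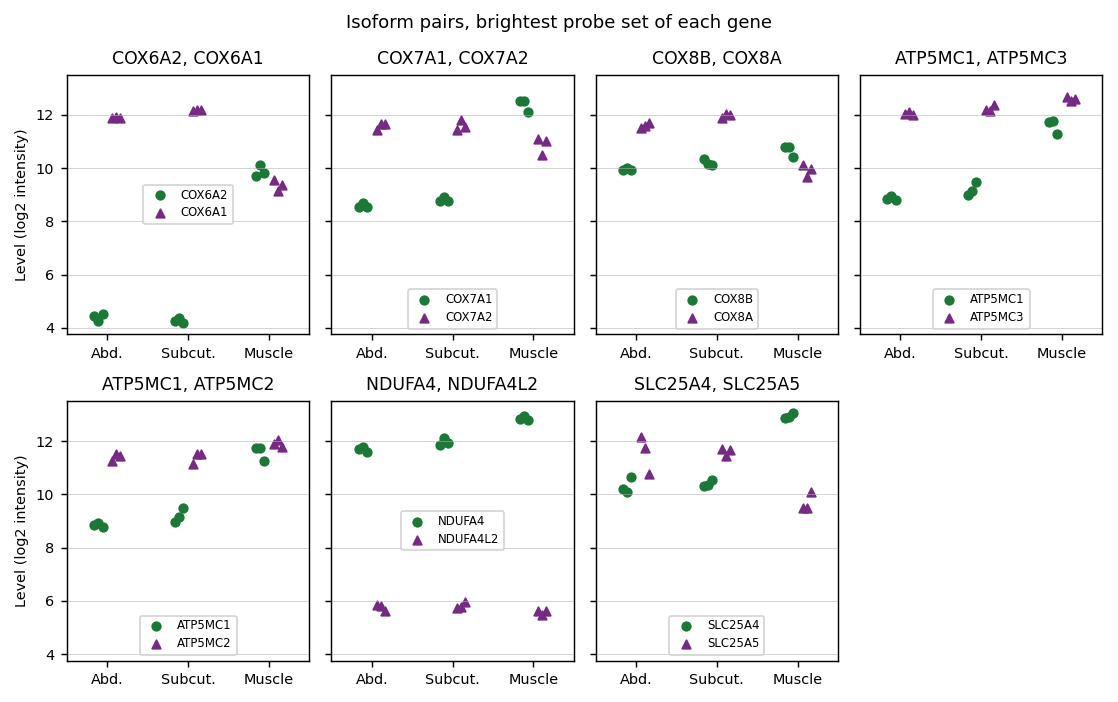
Log2 level (y axis) of the brightest probe set of both genes of 7 isoform pairs in abdominal fat, subcutaneous fat and muscle, 3 arrays each; circles are the first gene named above a panel and triangles the second. Levels of different probe sets cannot be set against each other, so only the change between tissues is read: COX6A2, COX7A1 and SLC25A4 are lower in fat while COX6A1, COX7A2 and SLC25A5 are higher.

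Whether paired isoforms changed unequally was tested on the log2 difference between the 2 genes within each array, for 7 of 8 listed pairs with both genes measured. The exact permutation test over the 84 ways of dividing 9 arrays into 6 and 3 was two-sided, and 0.0238 is the smallest p it can give. It takes the 6 adipose arrays, which come from 2 depots, as exchangeable replicates and makes no allowance for animals shared between tissues. Each pair described with that p reached it also after Benjamini-Hochberg adjustment over the 7 pairs. Adipose and muscle arrays did not overlap for any pair, and how often other gene pairs separate so fully was not counted. For 25.8% of single named genes every adipose array lay below every muscle array.

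COX6A2 minus COX6A1 was -7.97 to -7.36 on the 6 adipose arrays, against 0.16, 0.98 and 0.43 on the muscle arrays, a change of -8.21 in adipose tissue (exact permutation p = 0.0238), whose size is not exact because adipose COX6A2 was near background. COX7A1 minus COX7A2 was -3.13 to -2.67 in adipose tissue, against 1.45, 2.04 and 1.13 in muscle, a change of -4.44 (exact permutation p = 0.0238). COX8B minus COX8A was -1.88 to -1.53 in adipose tissue, against 0.67, 1.14 and 0.47 in muscle, a change of -2.46 (exact permutation p = 0.0238). That last change was -6.95 with the COX8B probe set brightest in muscle. All 3 complex IV pairs thus moved away from the heart and muscle isoform in fat relative to muscle.

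The other pairs moved less, apart from the adenine nucleotide translocators. NDUFA4 minus NDUFA4L2 averaged 6.03 ± 0.17 (SD, n = 6) in adipose tissue and 7.27 ± 0.15 (n = 3) in muscle, a change of -1.24, but -0.51 with the NDUFA4L2 probe set brightest in muscle. Both NDUFA4L2 probe sets, of a paralog induced by low oxygen, had means under 6 in every tissue, so this pair gives no measure of unequal change. SLC25A4, the heart and muscle translocator that exchanges ADP for ATP across the inner membrane, was lower in adipose tissue (-2.61 ± 0.14, limma adjusted p = 4.49e-07). SLC25A5 and SLC25A6, its forms in other tissues, were higher, by 1.89 ± 0.27 and 1.94 ± 0.16 (limma adjusted p = 0.000264 and 6.65e-06). SLC25A4 minus SLC25A5 was -0.14 on abdominal replicate 3 and -1.96 to -1.11 on the other adipose arrays, against 3.38, 3.44 and 2.97 in muscle, a change of -4.50 (exact permutation p = 0.0238).

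ATP synthase had all 9 members lower in adipose tissue, with a median of -0.81 and a range of -2.56 to -0.42. In the catalytic head and its shaft, the alpha, beta, gamma and delta subunits ATP5F1A, ATP5F1B, ATP5F1C and ATP5F1D were lower by -1.22 to -0.42. ATP5F1A read 11.93, 12.11 and 12.33 in abdominal fat and 12.17, 12.33 and 12.33 in subcutaneous fat, against 12.58, 12.53 and 12.73 in muscle. The adipose arrays lay just below the muscle arrays (-0.42 ± 0.12, limma adjusted p = 0.0134). The call was lost with the mean of its 2 probe sets (-0.24, adjusted p = 0.0625), of which the second had every tissue mean under 6.

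ATP5F1D read 8.87, 8.99 and 9.33 in abdominal fat and 9.03, 9.39 and 9.36 in subcutaneous fat, against 10.29, 10.62 and 10.22 in muscle (-1.22 ± 0.15, limma adjusted p = 9.09e-05). Its dimmer probe set went against this, at 6.31, 6.56 and 6.5 in abdominal fat and 6.94, 7.18 and 6.72 in subcutaneous fat, against 6.43, 6.56 and 6.19 in muscle. That probe set did not pass against muscle for both depots together (0.31, limma adjusted p = 0.083) and was higher in subcutaneous fat than in muscle (0.55, limma adjusted p = 0.0158).

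The peripheral stalk holds the catalytic head still, and its members ATP5PB, ATP5PO and ATP5PD were lower by -1.11, -1.01 and -0.63. ATP5PB, the b subunit, read 11.27, 11.10 and 11.40 in abdominal fat and 11.04, 11.21 and 11.17 in subcutaneous fat, against 12.27, 12.40 and 12.26 in muscle (-1.11 ± 0.11, limma adjusted p = 1.74e-05). No adipose array reached the muscle range.

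The c subunits form the rotor ring in the membrane, and several genes encode the same mature protein. ATP5MC1 read 8.84, 8.94 and 8.79 in abdominal fat and 8.98, 9.15 and 9.49 in subcutaneous fat, against 11.74, 11.76 and 11.27 in muscle (-2.56 ± 0.15, limma adjusted p = 9.11e-07). ATP5MC3 read 12.04, 12.10 and 12.01 in abdominal fat and 12.17, 12.13 and 12.37 in subcutaneous fat, against 12.66, 12.52 and 12.61 in muscle (-0.46 ± 0.10, limma adjusted p = 0.00337). ATP5MC2, not a member, differed by -0.50 ± 0.13 (limma adjusted p = 0.00702). All 3 probe sets were thus lower in fat, that of ATP5MC1 by more than the others. Probe sequences were not used here, so whether these probe sets also bind transcripts of the other c subunit genes was not tested.

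The change of ATP5MC1 was larger than those of both other genes within each array. ATP5MC1 minus ATP5MC3 averaged -3.10 ± 0.14 (SD, n = 6) in adipose tissue and -1.0 ± 0.30 (n = 3) in muscle, a change of -2.10 (exact permutation p = 0.0238). ATP5MC1 minus ATP5MC2 averaged -2.37 ± 0.24 in adipose tissue and -0.31 ± 0.17 in muscle, a change of -2.05 (n = 6 and 3, exact permutation p = 0.0238).

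Other genes of the pathway were counted from lists outside the members. Of 39 further subunits, 33 were lower and 2 higher in adipose tissue, with a median of -1.14, against 29.5% lower among all named genes. NDUFC1 (-2.17), UQCRQ (-2.0) and NDUFB4 (-1.95) were the lowest, and COX6A1 and COX7A2 the higher ones. The 4 that did not pass were NDUFB2 (-0.06), SDHA (-0.13), COX7A2L (0.28) and NDUFA4L2 (0.21). In complex II, which has no member here and also serves the citrate cycle, SDHB, SDHC and SDHD were lower by -0.98, -0.97 and -0.99, while the flavoprotein SDHA read 10.84, 10.57 and 11.15 in abdominal fat and 11.14, 11 and 10.66 in subcutaneous fat, against 10.87, 10.94 and 11.26 in muscle (limma adjusted p = 0.533). Those SDHA ranges overlapped.

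Assembly factors, which build the complexes but are not part of them, had 22 of 26 lower and 3 higher, with a median of -1.04. The shares among all named genes were 29.5% lower and 32% higher. The lowest were the complex II factor SDHAF4 (-2.29), the complex I factors ECSIT (-2.25) and NDUFAF5 (-2.15), and COX20 of complex IV (-2.14). The higher ones were the complex IV copper factors COX19 (1.62) and SCO1 (0.96) and the complex I factor ACAD9 (0.53), also an acyl-CoA dehydrogenase. The ACAD9 call was lost with arrays centred on their medians (0.41, adjusted p = 0.0503) and with quantile normalization (0.40, 0.0694). TTC19, a complex III factor, did not pass (-0.18, limma adjusted p = 0.192). It passed as lower with centred arrays (-0.30, adjusted p = 0.0468) and with quantile normalization (-0.34, 0.0255).

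Genes that bring electrons to ubiquinone or make it had 9 of 11 lower and none higher, with a median of -0.75, and COQ3, of ubiquinone synthesis, was the lowest (-1.76). Among all named genes, 29.5% were lower and 32% higher, to be set beside each count here. Of 8 carriers and channels, 5 were lower and 2 higher. The mitochondrial creatine kinase CKMT2, counted in that list, had the largest difference (-8.64) with adipose means under 6. Of 12 other mitochondrial proteins, such as import channels and chaperones, 10 were lower and 1 higher, with a median of -0.75. The transcript of citrate synthase, CS, differed by -1.05 ± 0.14 (limma adjusted p = 0.000174), and mitochondrial content itself was not measured. The chaperone HSPD1 was the higher one (0.40), not with centred arrays (0.28, adjusted p = 0.0627) but also with quantile normalization (0.52, 0.00452).

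Of 9 regulators of these genes, 3 were lower and 2 higher, with a median of -0.14, near the 29.5% lower and 32% higher among all named genes. The coactivator PPARGC1A, which drives mitochondrial biogenesis, read 4.64, 5.13 and 5.06 in abdominal fat and 4.32, 4.80 and 4.52 in subcutaneous fat, against 6.82, 7.79 and 8.57 in muscle (-2.98 ± 0.31, limma adjusted p = 3.24e-05). Its adipose values were near background. PPARA, a nuclear receptor of fat oxidation, and the mitochondrial transcription factor TFB2M were the other lower regulators (-1.71 and -1.68). PPARD (0.52) and NRF1 (0.37) were higher, and neither passed with centred arrays (adjusted p = 0.0863 and 0.132). With quantile normalization NRF1 passed (0.51, 0.00559) and PPARD did not (0.31, 0.159). NRF1 had every tissue mean under 6.

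**Figure D4:**
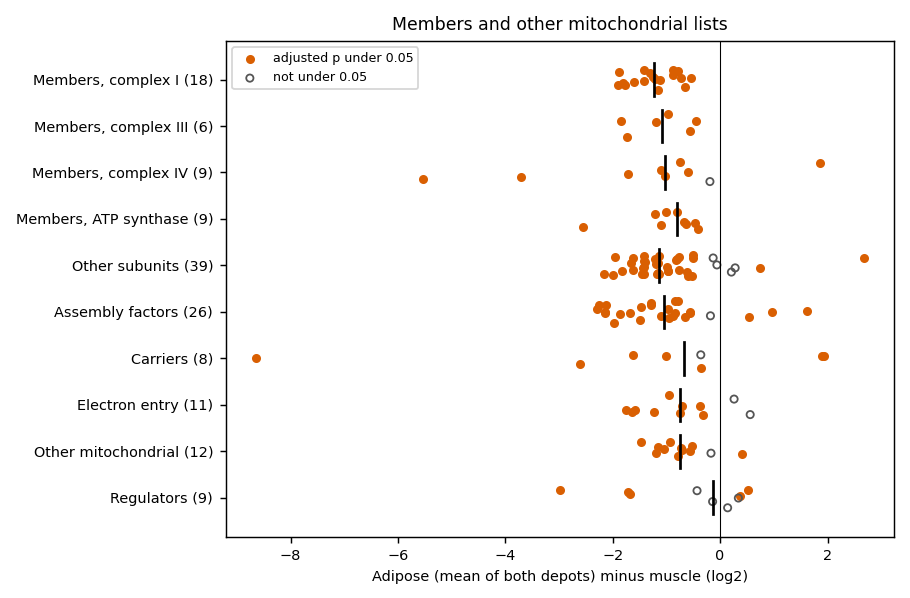
Difference between adipose tissue (mean of both depots) and muscle on the log2 scale (x axis) for each gene of the members by complex and of 6 other mitochondrial lists, with the number of measured genes in brackets. Filled points had an adjusted p under 0.05, open points did not, and the black bar is the list's median; most lists centre between -1.3 and -0.6 and the regulators near -0.14.

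Each depot was also set against muscle. In abdominal fat 40 of 42 members were lower and COX8A was higher, with a median of -1.17, against 27.1% lower and 29% higher among all named genes. In subcutaneous fat 36 were lower and COX8A was higher, with a median of -1.03, against 25.9% lower and 30.4% higher. Both comparisons share the muscle arrays. NDUFA10 (-0.24, limma adjusted p = 0.347), UQCRC1 (-0.28, 0.0924), UQCRH (-0.43, 0.0501) and ATP5F1A (-0.34, 0.0637) did not pass for subcutaneous fat alone, and COX4I1 passed in neither depot. UQCRH, ATP5F1A and UQCRC1 passed for subcutaneous fat under 9, 3 and 3 of the 20 alternatives run. For abdominal fat the UQCRH call ended without muscle replicate 1 or 2, any abdominal array or subcutaneous replicate 1 (adjusted p of 0.0545 to 0.124), and the ATP5F1A call without abdominal replicate 1 (-0.40, 0.0588). For subcutaneous fat the ATP5MC3 call (-0.37, limma adjusted p = 0.0235) ended without subcutaneous replicate 1 or 2 or muscle replicate 1 (0.0643 to 0.0819).

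Between the depots no member passed in limma, against 1.5% of all named genes. An unadjusted p under 0.05 was found for 10 of 42 members (23.8%) and for 18% of all named genes. The median difference, abdominal minus subcutaneous, was -0.16, against -0.04 over all named genes, and 32 members (76.2%) and 56% of all named genes were below 0. For 18 of 42 members the arrays of the depots did not overlap, always with the abdominal arrays lower. Of all named genes, 28.6% had depots that did not overlap, counting both directions. The share of all named genes with the abdominal arrays lower was not counted, so the direction has no matching background. Some marker levels also differed between the depots. All 6 endothelial markers lay above 0, with a median of 0.56 and 1 call, and their summed level was 12.08 to 12.29 in abdominal and 11.61 to 11.66 in subcutaneous fat. The summed levels of blood cell markers (6.78 to 7.09 in abdominal and 6.21 to 6.52 in subcutaneous fat) did not overlap either. At most 1 of these 4 markers was over 6 on any adipose array, so most of their values were near background. Summed levels of adipocyte markers (15.17 to 15.25 in abdominal and 14.95 to 15.02 in subcutaneous fat) also did not overlap. No blood cell or adipocyte marker passed between the depots. The part of all these markers in the depot differences of the members was not tested.

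UQCRC1 came nearest to a call, with abdominal arrays at 10.09, 10.14 and 10.44 and subcutaneous arrays at 10.79, 10.84 and 10.76. It differed by -0.58 ± 0.12 (limma adjusted p = 0.0595), and it passed with array weights (adjusted p = 0.0228) and with 32 added to each intensity before the log (0.0352). In the other complexes the smallest p belonged to NDUFV1 (-0.47 ± 0.15, limma adjusted p = 0.164), COX8A (-0.38 ± 0.14, 0.243) and ATP5MC1 (-0.35 ± 0.18, 0.418). NDUFV1 read 9.18, 9.01 and 9.48 in abdominal fat and 9.57, 9.82 and 9.71 in subcutaneous fat. For each of these 4 genes the abdominal arrays all lay below the subcutaneous ones. NDUFB5 had the largest difference the other way (0.45, limma adjusted p = 0.309).

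The design leaves room for depot differences of moderate size. The 95% interval of a member's depot difference had a median half-width of 0.31, and the bounds ran from -1.05 to 0.88 over the members. The interval held 0 for 32 members, lay below 0 for 9 and above 0 for NDUFB5. These intervals are not adjusted for the number of genes and treat the arrays as independent.

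**Figure D5:**
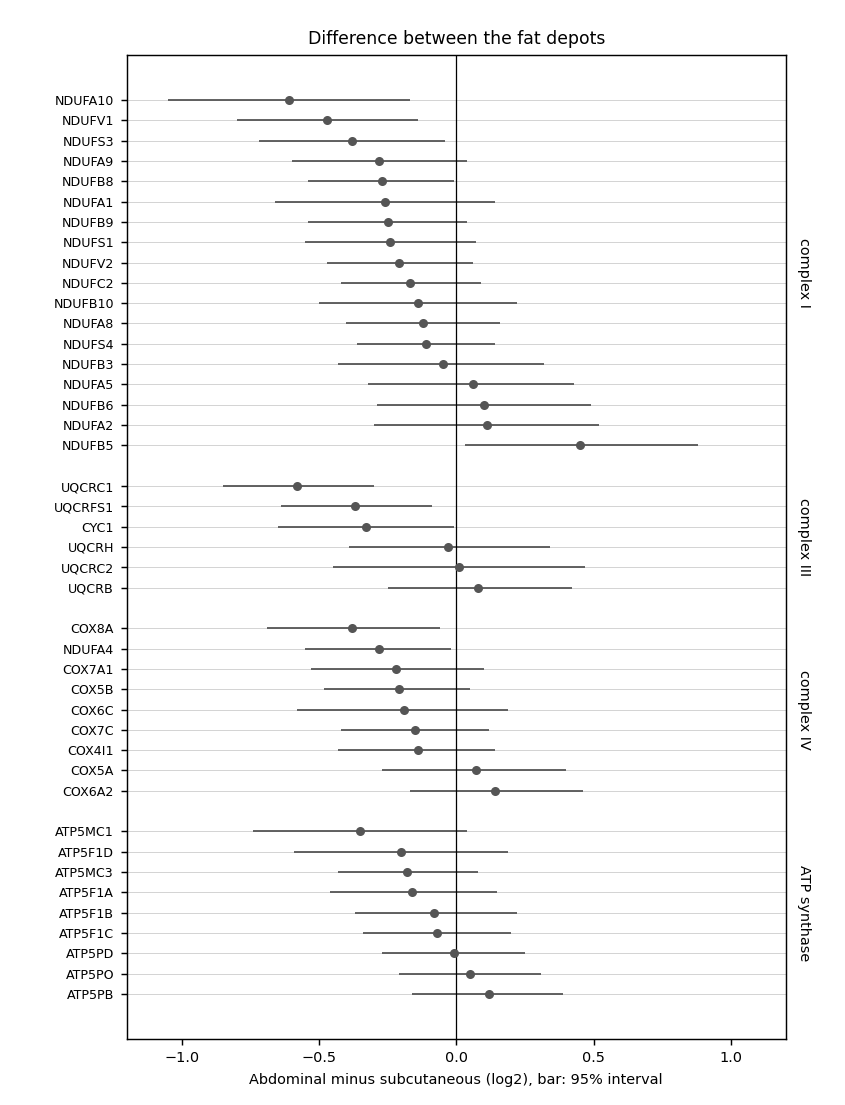
Abdominal minus subcutaneous difference (x axis, log2) of each member with its 95% interval from limma. Most points lie a little left of 0, UQCRC1 and NDUFA10 are farthest left, NDUFB5 is farthest right, and no member passed after adjustment.

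Among the arrays of a tissue the members often had the same highest or lowest array. In abdominal fat, replicate 1 was the lowest for 24 of 42 members (57.1%), against 35.2% of all named genes. In subcutaneous fat, replicate 1 was the lowest for 23 (54.8%, against 39.5%) and replicate 2 the highest for 22 (52.4%, against 39.4%). In muscle, replicate 2 was the highest for 32 (76.2%, against 39.3%) and replicate 3 the lowest for 29 (69%, against 40.8%). On muscle replicates 1, 2 and 3 the summed levels of skeletal muscle markers were 15.73, 15.94 and 15.63. Those of adipocyte markers were 13.35, 12.48 and 13.32, and those of macrophage markers 11.06, 9.7 and 10.3. Their part in the order of the arrays was not tested. The members with the widest spread within a tissue were UQCRC2 in abdominal fat (SD 0.39), NDUFB5 in subcutaneous fat (0.35) and COX6C in muscle (0.36).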

How the data were processed

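Messenger RNA was measured in 3 arrays each of abdominal fat, subcutaneous fat and muscle. The authors deposited linear intensity values between 3.06 and 17450.5. RMA is named in the submitters' processing notes, without version or settings. The deposited values were turned to log2, 112 control probe sets were left out, and nothing else was normalized or filtered. The values of no array were identical to those of another.

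Probe sets were named through the array annotation and RefSeq gene identifiers (assembly ARS-UCD2.0, names only). Where a gene had several probe sets, as 11 members did, the brightest on average represents it, and others are given where they differ in call or sign, with examples that differ in size. A log2 mean under 6 is called near background.

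With 1 mean per tissue, all 24016 probe sets were fitted in limma 3.58.1 in R 4.3.3 (6 residual and 3.75 prior degrees of freedom), two-sided, with Benjamini-Hochberg adjustment over all of them and a threshold of 0.05. SE is the moderated standard error. Isoform pairs were tested with scipy 1.17.1 in Python 3.11.15. The fit was tested on simulated data. Alternatives covered the prior, dim probe sets, scaling, array weights, a replicate block, the arrays in the fit, the choice of probe set, low values, the threshold and leaving out each array.

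The members, lists and comparisons were chosen with earlier results of these data known. Per-array values are given for the 3 largest and 2 smallest differences per complex, isoform pairs, members not lower, and the smallest depot p per complex. Other lists give at most the 4 largest passing differences and genes against their list; CS, NDUFA9, UQCRFS1, the subunits of ATP synthase and complex II and the groups by role were added after seeing values.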

Additional observations from a re-analysis of the deposited data

How the results depend on the processing

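The number of members called was 38 to 42 for adipose tissue against muscle, 38 to 42 for abdominal fat and 35 to 40 for subcutaneous fat over the alternatives, against 41, 41 and 37 as reported, and no called member changed direction. Leaving out each array in turn gave 39 to 41, 39 to 41 and 36 to 38. Between the depots the count was 0 throughout, also without each array, except for 1, UQCRC1, with array weights and 1 with 32 added before the log. The leading title number as a replicate block gave 41, 41, 37 and 0 members. The deviations of same-numbered arrays of different tissues correlated at 0.043 to 0.362, with 5 of 7 over 0.1. Those of arrays of different number correlated at -0.324 to 0.17, with 1 of 20 over 0.1. As not every same-numbered pair exceeded 0.1, the numbers were not used to pair the samples in the main fit. That cutoff cannot decide whether same-numbered arrays share an animal, since all 7 correlations were positive. In subcutaneous fat ATP5MC3 did not pass with that block (adjusted p = 0.0529) and UQCRH did (0.0248). Over all probe sets, 314 were called between the depots, against 1034 with array weights, 118 with the replicate block, 36 at a threshold of 0.01, and 57 to 491 without 1 array. With each array centred on its median, 37.0% of named genes were lower and 28.5% higher in adipose tissue, against 29.5% and 32% as deposited.

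Without 1 array, the isoform changes were -8.39 to -7.98 for COX6A2 minus COX6A1, -4.64 to -4.19 for COX7A1 minus COX7A2, -2.60 to -2.27 for COX8B minus COX8A, -2.27 to -1.98 for ATP5MC1 minus ATP5MC3, -2.15 to -1.98 for ATP5MC1 minus ATP5MC2, -1.30 to -1.15 for NDUFA4 minus NDUFA4L2 and -4.72 to -4.35 for SLC25A4 minus SLC25A5. Without a muscle array the exact test cannot go below p = 0.0714, so no pair passed there by construction. With the mean of all probe sets, COX6A2 minus COX6A1 changed by -5.85, COX8B minus COX8A by -4.71 and NDUFA4 minus NDUFA4L2 by -0.42. ATP5F1D in subcutaneous fat lost its call with that mean (-0.28, adjusted p = 0.142). Signals near background, as for adipose COX6A2, make the size of a difference inexact. Signals near the top of the scale may compress differences, which was not tested.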
